A study of Homo sapiens with 12 samples.

Results

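The genes described here are the 2 alternative ATPases and the 8 common core subunits of the SWI/SNF chromatin remodeller: SMARCA4, SMARCA2, SMARCB1, SMARCC1, SMARCC2, SMARCD1, SMARCD2, SMARCD3, SMARCE1 and ACTL6A. They were taken by gene symbol, as members of the complex. All 10 were found among the 60603 genes of the count tables, and all 10 were among the 17057 genes tested after a filter on low counts.

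SWI/SNF, also called the BAF complex, uses ATP to slide or evict nucleosomes and so opens DNA at enhancers and promoters. SMARCA4 (BRG1) and SMARCA2 (BRM) are the motors, and one complex holds one of them. The SMARCC proteins form the scaffold on which SMARCD, SMARCE1 and SMARCB1 assemble, while ACTL6A, an actin-like protein, sits with the motor in the ATPase module, as do the BCL7 proteins. Genes of the complex are recurrently mutated in B-cell lymphoma, BCL7A and SMARCA4 among them.

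RNA came from OCI-LY1 and VAL, established human lines of diffuse large B-cell lymphoma. The vector brought in was empty, held wild-type BCL7A, or held delta27-BCL7A, a form with a splice-site mutation, and all carried a ZsGreen1 reporter. Per the labels' protocols, the BCL7A vectors gave both the short and the long isoform over 3 rounds of infection at a multiplicity of 2, and sorted reporter-positive cells were collected on day 10 in OCI-LY1 and on day 17 in VAL. Each of the 6 groups held 2 libraries from independent transductions. Line and day cannot be told apart.

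BCL7A, the gene carried by the vectors, was measured first. Its level is given as CPM, its count relative to the library's total in genes, scaled between libraries by the trimmed mean of M values (TMM). In OCI-LY1 it stood at 155 and 157 CPM with empty vector, 576 and 578 CPM with wild-type BCL7A, and 573 and 588 CPM with delta27-BCL7A. In VAL the values were 291 and 283, 454 and 472, and 490 and 485 CPM in the same order. The libraries labelled as carrying BCL7A were thus above the empty vector libraries in both lines. The counts do not divide these reads between vector and native gene.

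Depth ran from 21839547 to 24935893 reads in genes per library. The 2 VAL wild-type libraries differed most from each other, at a chi-square per degree of freedom of 7.51, where the other groups lay between 1.52 and 3.21. B-cell markers summed to between 3467 and 3647 CPM in OCI-LY1 and between 4665 and 5280 CPM in VAL, with all 8 markers detected in each line. Of the markers of other cells, the 6 T-cell genes summed to at most 18.6 CPM. In OCI-LY1 nearly all of it was TRAC, and in VAL, where the sum was 2.78 to 5.01 CPM, TRAC reached 3.91 CPM and CD3E stood at 0.914 to 1.34 CPM (20 to 29 reads). CD3D and CD2 had at most 1 read in a library. Myeloid (6 genes), stromal (5 genes) and erythroid (3 genes) markers summed to at most 3.17, 1.52 and 0.674 CPM. In bulk RNA a lower level in all cells and fewer cells of one kind cannot be told apart.

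The promoter sequences of the 2 ATPase genes are shown because both motors were among the members that passed a test under a BCL7A vector. Of the 10 members, 7 had an entry in the RefSeq promoter table, with 15 entries between them, and SMARCC1, SMARCC2 and ACTL6A had none. Each sequence is the 250 bases before an annotated RefSeq start (GRCh38.p14), 5′ to 3′ on the gene's strand. For each ATPase the entry with the most CG dinucleotides is printed. Capitals mark the letters GGGCGG, the core of a GC box, on either strand (CCGCCC on the other strand).

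SMARCA4, chr19:10960780-10961029, plus strand: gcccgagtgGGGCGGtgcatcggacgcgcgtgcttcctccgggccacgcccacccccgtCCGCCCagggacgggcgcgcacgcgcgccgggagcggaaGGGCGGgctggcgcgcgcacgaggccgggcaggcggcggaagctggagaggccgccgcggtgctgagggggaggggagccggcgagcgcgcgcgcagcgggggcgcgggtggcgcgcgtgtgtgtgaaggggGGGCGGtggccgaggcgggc

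SMARCA2, chr9:2015097-2015346, plus strand: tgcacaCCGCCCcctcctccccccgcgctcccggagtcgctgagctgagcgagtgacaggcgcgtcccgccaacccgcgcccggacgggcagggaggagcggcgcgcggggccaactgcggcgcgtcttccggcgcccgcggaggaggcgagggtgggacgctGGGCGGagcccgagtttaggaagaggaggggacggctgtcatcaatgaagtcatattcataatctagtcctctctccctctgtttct

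The SMARCA4 window held 4 such matches and 44 CG dinucleotides, and the SMARCA2 window held 2 matches and 29 CG dinucleotides. Since these windows were picked for their CG dinucleotides, both counts are bound up with the choice. The other SMARCA4 entry held 4 CG dinucleotides, the other SMARCA2 entries held 0, 1 and 8, and none of them held GGGCGG. Over the 35116 windows of the same length in the table, 42.6% held at least 1 match. The letters CCAAT, present in 32.0% of all windows on either strand, were found in neither. TATAAA, present in 10.7% of all windows, was also absent from both, and 1 of the other SMARCA2 entries held it. These matches describe the letters and are not binding sites.

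Levels can be set side by side between genes only per length, so CPM was divided by the length in kilobases (kb) of the union of a gene's annotated exons. With empty vector, the order in OCI-LY1 ran from ACTL6A (81.8 CPM per kb ± 2.07, SD, n = 2) through SMARCC1 (42.2 ± 1.86) and SMARCD2 (38.7 ± 0.0670) to a middle tier. That tier held SMARCA4 (22.7 ± 2.09), SMARCB1 (21.2 ± 0.355) and SMARCD1 (21.0 ± 0.759), whose libraries overlapped, and then SMARCC2 (18.4 ± 0.322) and SMARCA2 (10.8 ± 0.0775). SMARCE1 (1.89 ± 0.00141) and SMARCD3 (1.00 ± 0.221) were lowest. In VAL, SMARCC1 led (45.2 ± 0.237), followed by ACTL6A (40.2 ± 0.0881), SMARCD1 (33.1 ± 0.346) and SMARCD2 (29.8 ± 0.814). SMARCC2 (22.7 ± 0.263) and SMARCA4 (22.5 ± 1.55) overlapped, ahead of SMARCB1 (17.6 ± 0.133) and SMARCA2 (6.50 ± 0.0549), and SMARCD3 (2.08 ± 0.171) and SMARCE1 (2.04 ± 0.0912) overlapped at the bottom. The per-length place of SMARCE1 is uncertain. Its annotated exons span 18680 bases in all, and 3697 of them lie in the readthrough gene AC073508.2 on the same strand, to which only 4 reads were assigned over the 12 libraries.

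**Figure D1:**
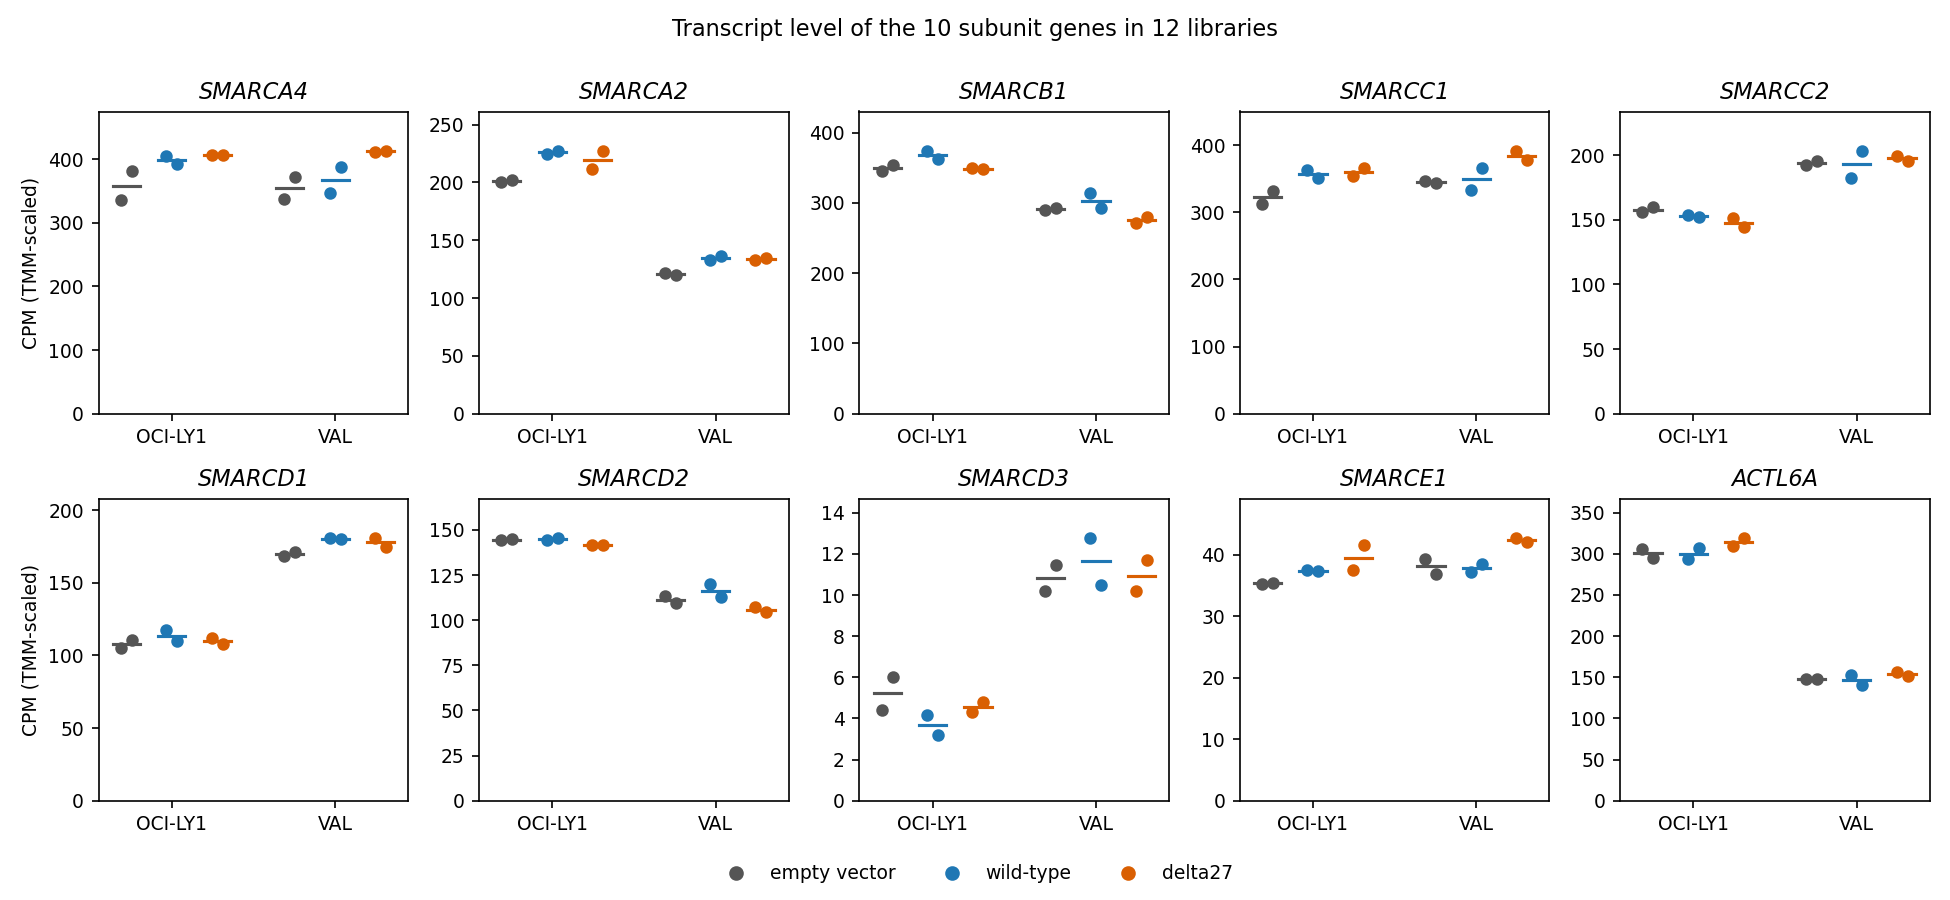
Level of each of the 10 subunit genes in TMM-scaled CPM (vertical axis starting at 0) in the 12 libraries, by line and vector. Points are libraries and short lines are group means. ACTL6A and SMARCA2 sit lower in VAL and SMARCD1 and SMARCD3 higher, in all 3 vector groups.

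For 7 of the 10 genes the log2 difference between the lines exceeded any difference between vectors within a line. SMARCA4, SMARCC1 and SMARCE1 were the exceptions. With empty vector, 7 of the 10 differed between VAL and OCI-LY1 at an adjusted p below 0.05 in edgeR's quasi-likelihood test, 3 higher in VAL and 4 lower. Over all genes tested, 73.4% differed, 36.9% higher and 36.5% lower, so the members' share lies near that background. Log2 fold changes are given as VAL over OCI-LY1, with their standard error (SE). Gene positions are those of GENCODE 29 on GRCh38.

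Among the motors, SMARCA2 (ENSG00000080503, chromosome 9, 1980290 to 2193624, plus strand) carried the difference. It had 200.4 and 202 CPM with empty vector in OCI-LY1 and 122 and 120.2 CPM in VAL. All 6 libraries of VAL, at 120.2 to 137 CPM, lay below all 6 of OCI-LY1, at 200.4 to 227 CPM. The log2 fold change was -0.74 (SE 0.0489, edgeR adjusted p = 5.54e-16). SMARCA4 (ENSG00000127616, chromosome 19, 10960825 to 11079426, plus strand) had 335 and 382 CPM in OCI-LY1 and 338 and 372 CPM in VAL, so the groups overlapped. Its log2 fold change was -0.02 with a 95% interval of -0.13 to 0.10 (edgeR adjusted p = 0.82). The share of SMARCA4 in the summed per-length level of both motors therefore differed: it ran from 66.4% to 69.3% over the OCI-LY1 libraries and from 75.4% to 78.5% over the VAL libraries.

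ACTL6A (ENSG00000136518, chromosome 3, 179562880 to 179588408, plus strand) was lower in VAL by more than any other member. It had 306 and 295 CPM in OCI-LY1 and 147 and 148 CPM in VAL, a log2 fold change of -1.03 (SE 0.0497, edgeR adjusted p = 4.86e-20). Over all vectors, OCI-LY1 libraries lay between 294 and 319 CPM and VAL libraries between 141 and 156 CPM. ACTL6A shares 124 exonic bases with MRPL47 on the opposite strand, a gene with 28618 reads over the 12 libraries. The strand setting of the counting is not given in the sources used here.

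In the SMARCC scaffold pair, SMARCC2 (ENSG00000139613, chromosome 12, 56162983 to 56189567, minus strand) was higher in VAL. SMARCC1 (ENSG00000173473, chromosome 3, 47585272 to 47782106, minus strand) did not pass the test. SMARCC2 shares 514 exonic bases with MYL6 on the opposite strand, a gene with 94613 reads over the 12 libraries. SMARCC2 read 156 and 160 CPM in OCI-LY1 against 193 and 196 CPM in VAL (log2 fold change 0.30, SE 0.0509, edgeR adjusted p = 2.48e-06). SMARCC1 read 313 and 333 against 347 and 344 CPM, without overlap, with a log2 fold change of 0.10 (95% interval -0.0024 to 0.20, edgeR adjusted p = 0.0733), and it passed in 8 of 20 alternatives, DESeq2 among them. SMARCC1 made up a median of 72.2% of the pair in OCI-LY1 (69.2% to 74.0% over 6 libraries) and 67.1% in VAL (66.3% to 68.7%).

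The SMARCD subunits, which link the complex to transcription factors, changed in opposite directions. SMARCD1 lies on chromosome 12 (ENSG00000066117, 50084972 to 50100712, plus strand), SMARCD2 on chromosome 17 (ENSG00000108604, 63832081 to 63843065, minus strand) and SMARCD3 on chromosome 7 (ENSG00000082014, 151238764 to 151277896, minus strand). SMARCD1 rose from 105 and 111 CPM in OCI-LY1 to 169 and 171 CPM in VAL (log2 fold change 0.65, SE 0.0507, edgeR adjusted p = 4.36e-14). SMARCD2 fell from 144 and 145 CPM to 114 and 109 CPM (log2 fold change -0.38, SE 0.0502, edgeR adjusted p = 2.53e-08). A correction of each library for GC content and length, taken as the union of annotated exons, brought this difference to -0.19 (edgeR adjusted p = 0.000235). SMARCD3, the paralog of heart and skeletal muscle, was scarce, with 105 and 144 reads in OCI-LY1 and 224 and 255 reads in VAL. Its log2 fold change was 1.05 (SE 0.143, edgeR adjusted p = 4.01e-08), from 4.40 and 6.03 CPM to 10.2 and 11.4 CPM.

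Per length, the leading SMARCD paralog was therefore not the same in the lines. SMARCD2 made up a median of 63.2% of the family in OCI-LY1 (62.0% to 64.5%) and 45.0% in VAL (43.5% to 46.7%). SMARCD1 made up 35.1% in OCI-LY1 (34.1% to 36.7%) and 51.8% in VAL (50.3% to 53.4%), so it was ahead in every VAL library. SMARCD3 contributed 1.39% and 3.21%.

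**Figure D2:**
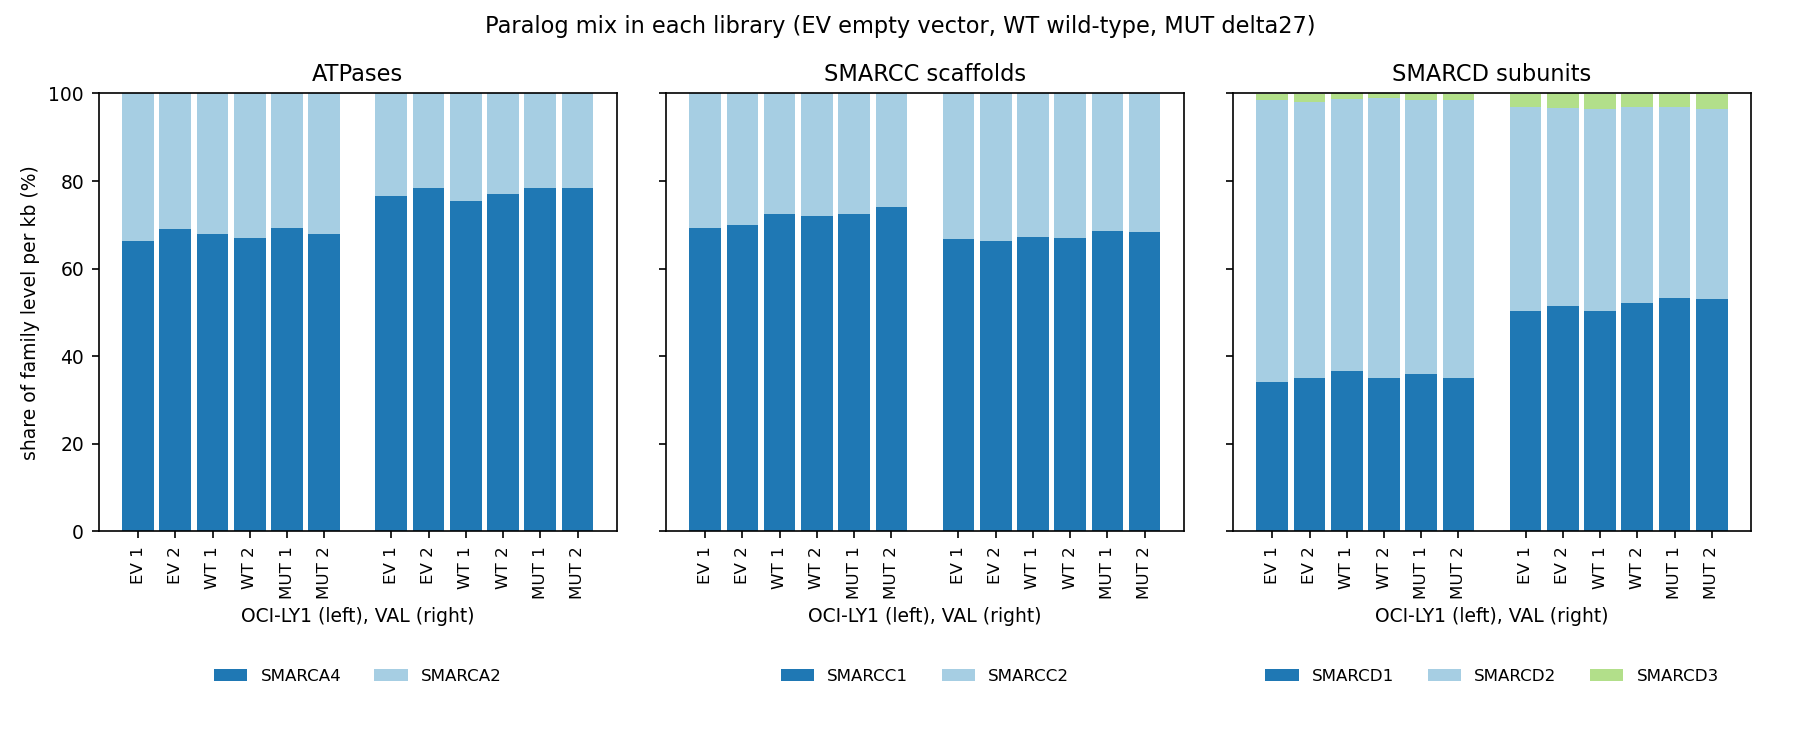
Share of each paralog in the summed level per kb of its family (percent, stacked bars) in each of the 12 libraries, for the ATPases, the SMARCC scaffolds and the SMARCD subunits. The SMARCC1 share in OCI-LY1 is lower with empty vector (69.2% and 70.0%) than with wild-type BCL7A (72.6% and 72.1%) or delta27-BCL7A (72.4% and 74.0%). SMARCD1 takes a median of 35.1% in OCI-LY1 and 51.8% in VAL.

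SMARCB1, the subunit that grips the nucleosome's acidic patch and is lost in rhabdoid tumours, was lower in VAL. It lies on chromosome 22 (ENSG00000099956, 23786931 to 23838008, plus strand). It had 346 and 354 CPM in OCI-LY1 and 289 and 293 CPM in VAL (log2 fold change -0.27, SE 0.0472, edgeR adjusted p = 5.34e-06). Its exons share 2923 bases with DERL3 on the opposite strand, a gene with 4551 reads over the 12 libraries. SMARCE1 (ENSG00000073584, chromosome 17, 40624962 to 40648864, minus strand), which carries an HMG box that binds DNA, read 35.3 and 35.3 CPM against 39.3 and 36.9 CPM, and did not pass (log2 fold change 0.11, SE 0.0670, edgeR adjusted p = 0.137). After the GC and length correction the sign of this gene turned, to -0.22 (edgeR adjusted p = 0.00114).

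**Figure D3:**
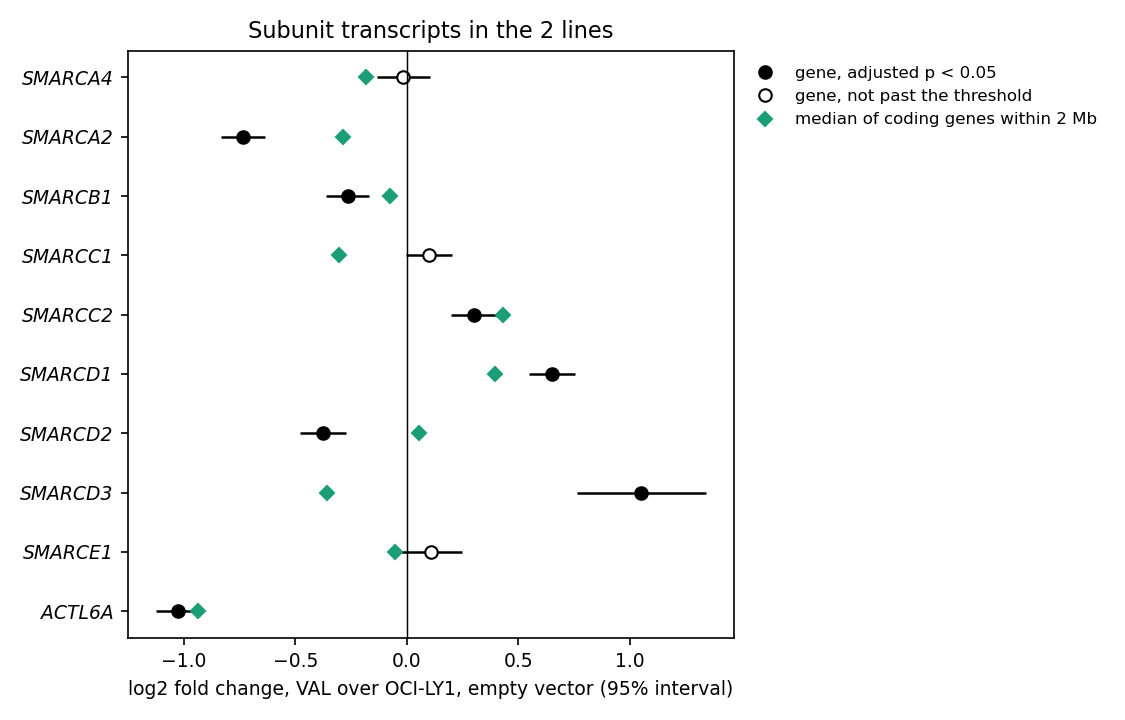
Log2 fold change of each subunit gene, VAL over OCI-LY1 with empty vector (horizontal axis), with its 95% interval. Filled circles passed an adjusted p of 0.05, and diamonds give the median over coding genes within 2 Mb. ACTL6A at -1.03 and SMARCD3 at 1.05 mark the extremes.

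Which genes followed the line in the same way was described for the 3 members with the widest spread over the 12 libraries, among 10983 protein-coding genes. Likeness was the root mean square difference of log2 CPM, each gene centred on its own mean, so a smaller value is a closer match. All of these patterns are dominated by the step between the lines. For ACTL6A the closest were RFC4, a clamp loader subunit of DNA replication (0.0264), EIF5, a translation initiation factor (0.0292), and ARMC8 (0.0416). RFC4 ran from 183 to 192 CPM in OCI-LY1 and from 87.1 to 96.9 CPM in VAL. RFC4 and ARMC8 lie on chromosome 3, as does ACTL6A, and EIF5 on chromosome 14. For SMARCA2 they were POU2AF1, the B-cell coactivator of octamer-binding factors (0.0346), KIF1C, a kinesin motor (0.0394), and CRCP (0.0475). POU2AF1 ran from 873 to 1027 CPM in OCI-LY1 and from 550.5 to 632 CPM in VAL. For the scarce SMARCD3 the nearest were NENF (0.139), SUPT3H (0.141) and TWSG1 (0.143).

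Changes between vectors were small. Within a line, no member differed by more than 0.22 on the log2 scale between vectors other than SMARCD3, whose counts are low. Both BCL7A vectors are compared with the same empty vector libraries, so their differences are not independent of each other and are given side by side. SMARCA4, SMARCA2, SMARCC1 and SMARCE1 each passed as higher with a BCL7A vector in at least 1 comparison. No member passed as lower with either vector in the main edgeR fit, though SMARCD3 did in some alternatives.

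With wild-type BCL7A, 1 of 10 members passed in OCI-LY1, where 11.4% of all genes did, and 0 of 10 in VAL, where 1.62% did. In VAL, 1 member had an unadjusted p below 0.05 in edgeR, DESeq2 and limma-voom called 0, and leaving out either VAL wild-type library also gave 0. The median log2 fold change over the members was 0.0717 in OCI-LY1 and 0.0559 in VAL, beside -0.0111 and 0 over all genes tested. Over both lines, 1 of 10 passed, where 6.95% of all genes did.

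That member was SMARCA2. In OCI-LY1 it went from 200.4 and 202 CPM with empty vector to 225 and 227 CPM with wild-type BCL7A, without overlap (log2 fold change 0.16, SE 0.0473, edgeR adjusted p = 0.0185). In VAL it went from 122 and 120.2 CPM to 133 and 137 CPM, also without overlap (log2 fold change 0.16, SE 0.0499, edgeR adjusted p = 0.11). The mean change over both lines was 0.16 (SE 0.0344, edgeR adjusted p = 0.00232), or 11.9% more. It passed under each of 20 other settings, with log2 fold changes from 0.15 to 0.18. In OCI-LY1 alone the call was lost when any 1 of the 4 libraries compared was left out and under the GC and length correction, with log2 fold changes of 0.1066 to 0.196 over the alternatives.

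SMARCA4, the other motor, and SMARCC1 did not pass in OCI-LY1, but both depended on the setting. SMARCA4 had 335 and 382 CPM with empty vector and 405 and 392 CPM with wild-type BCL7A (log2 fold change 0.15, edgeR adjusted p = 0.0882). It passed in 11 of 21 alternatives, with adjusted p from 0.000775 to 0.721. SMARCC1 had 313 and 333 CPM and then 363 and 351 CPM (log2 fold change 0.15, edgeR adjusted p = 0.0514). DESeq2, limma-voom and edgeR with RLE scaling called it, among 13 of 21 alternatives, with adjusted p from 0.000715 to 0.437. In VAL the SMARCA4 values of 338 and 372 CPM and 347 and 389 CPM overlapped, as did those of SMARCC1, at 347 and 344 CPM and 334 and 367 CPM. SMARCD3 read 105 and 144 counts with empty vector in OCI-LY1 and 97 and 73 counts with wild-type BCL7A, a log2 fold change of -0.51 (95% interval -0.86 to -0.16, edgeR adjusted p = 0.0508), which passed as lower in 6 of 21 alternatives.

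With delta27-BCL7A, 2 of 10 members passed in OCI-LY1, where 19.6% of all genes did, and 1 of 10 in VAL, where 5.13% did. Over both lines, 4 of 10 passed, all higher, where 22.6% of all genes passed and 11.8% passed as higher. The median log2 fold change over the members was 0.0532 over both lines, beside -0.0249 over all genes tested.

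SMARCA4 was the member that passed in each line. It had 335 and 382 CPM with empty vector and 407 and 407 CPM with delta27-BCL7A in OCI-LY1 (log2 fold change 0.18, SE 0.0575, edgeR adjusted p = 0.0243). In VAL it had 338 and 372 CPM and then 412 and 413 CPM (log2 fold change 0.22, SE 0.0576, edgeR adjusted p = 0.0227). Both delta27 libraries lay above both empty vector libraries in each line, while the empty vector libraries lay apart from each other. Without the lower empty vector library, replicate 1 in either line, the change fell to 0.0931 in OCI-LY1 (adjusted p = 0.422) and 0.14 in VAL (adjusted p = 0.344), and the call was lost in this edgeR fit. It was also lost without either delta27 library of the line compared, under a filter of at least 1 CPM in all 12 libraries in OCI-LY1, and in a fit of VAL alone. Over both lines SMARCA4 was 14.8% higher (log2 fold change 0.20, SE 0.0407, edgeR adjusted p = 0.0005), and it passed under each of 20 other settings, from 0.16 to 0.25.

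SMARCC1, the scaffold, had 313 and 333 CPM with empty vector and 354 and 366 CPM with delta27-BCL7A in OCI-LY1 (log2 fold change 0.16, SE 0.0499, edgeR adjusted p = 0.022). That call was lost without OCI-LY1 empty vector replicate 1 or delta27 replicate 2 (adjusted p up to 0.257). In VAL it had 347 and 344 CPM and then 392 and 377 CPM (log2 fold change 0.15, SE 0.0499, edgeR adjusted p = 0.0623). The groups did not overlap in either line. The change over both lines was 0.16 (SE 0.0353, edgeR adjusted p = 0.00119), and it passed under each of 20 other settings. The SMARCC1 share of the scaffold pair went from 69.2% and 70.0% with empty vector to 72.4% and 74.0% with delta27-BCL7A in OCI-LY1, and from 66.3% and 66.8% to 68.4% and 68.7% in VAL.

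SMARCA2 had 212 and 227 CPM with delta27-BCL7A in OCI-LY1 and 133 and 135 CPM in VAL, above the empty vector libraries of each line. The change over both lines was 0.13 (SE 0.0343, edgeR adjusted p = 0.00384). SMARCE1 had 37.5 and 41.5 CPM in OCI-LY1 and 42.7 and 42.1 CPM in VAL, against 35.3 and 35.3 CPM and 39.3 and 36.9 CPM with empty vector (log2 fold change over both lines 0.16, SE 0.0467, edgeR adjusted p = 0.012). Leaving out OCI-LY1 delta27 replicate 2 ended the SMARCE1 call.

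**Figure D4:**
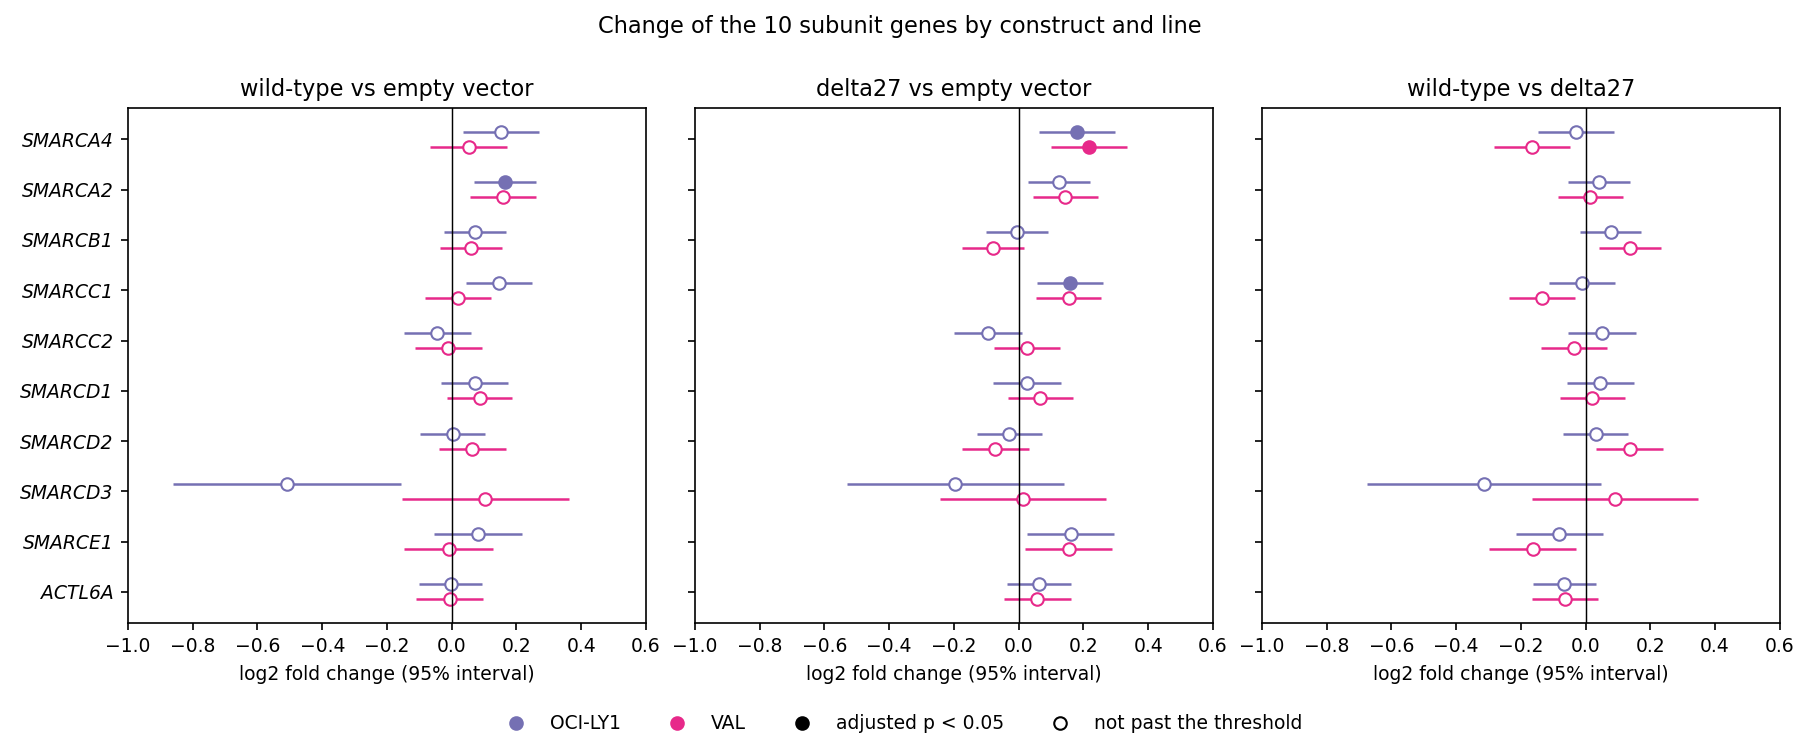
Log2 fold change (horizontal axis) with its 95% interval for each of the 10 subunit genes, between vectors within each line. Filled circles passed an adjusted p of 0.05. SMARCA4 passed with delta27-BCL7A in both lines, SMARCC1 with delta27-BCL7A and SMARCA2 with wild-type BCL7A in OCI-LY1.

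The changes with delta27-BCL7A moved with the GC content of transcripts. Across the genes tested, Spearman's rho between log2 fold change over both lines and GC content was -0.354 (genes are not independent replicates), and it was 0.026 after the GC and length correction. The transcripts of SMARCE1 and SMARCA2 are poor in GC, at 38.4% and 42.9%. Their unions of annotated exons, at 18680 and 18595 bases, are also the longest of the members, and the correction covers length as well. With the correction SMARCA2 went to 0.0592 (edgeR adjusted p = 0.171) and SMARCE1 to -0.0192 (edgeR adjusted p = 0.825), and both calls ended. SMARCD1, which had not passed, did so with it, at 0.0950 (edgeR adjusted p = 0.02). SMARCC1, at 46.6% GC, stood at 0.16, and SMARCA4, the member richest in GC at 61.4%, rose to 0.25 (edgeR adjusted p = 1.63e-07). ACTL6A, at 42.6% GC but with an exon union of 3675 bases, went from 0.0604 to 0.0319 and passed in neither fit. SMARCB1, at 59.6% GC with a union of 16525 bases, went from -0.0420 to -0.0054. The parts of GC content and length in these shifts were not tested separately. With wild-type BCL7A over both lines rho was -0.147, but its sign differed between the lines, at -0.271 in OCI-LY1 and 0.112 in VAL. The corrected change of SMARCA2 with wild-type BCL7A over both lines was 0.15 (edgeR adjusted p = 0.000623). There SMARCA4 (0.13, edgeR adjusted p = 0.00755), SMARCC1 (0.0933, edgeR adjusted p = 0.0426) and SMARCD1 (0.0952, edgeR adjusted p = 0.0358) also passed as higher after the correction.

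Of the remaining members, SMARCC2, SMARCD2 and ACTL6A did not pass with either BCL7A vector against empty vector, in either line or over both, in any alternative run. SMARCD1 passed over both lines with each vector under the GC and length correction only, with or without a replicate block. SMARCB1 passed with wild-type BCL7A against empty vector only where a VAL wild-type library was left out. SMARCC2 ran from 144 to 160 CPM over the 6 OCI-LY1 libraries and from 182 to 203 CPM in VAL. SMARCD1 ran from 105 to 117 CPM and from 169 to 181 CPM, and SMARCD2 from 142 to 146 CPM and from 104 to 120.1 CPM. ACTL6A is a partner of the motor and of the BCL7 proteins in the ATPase module. Its change over both lines was -0.0044 with wild-type BCL7A (95% interval -0.0755 to 0.0666) and 0.0604 with delta27-BCL7A (95% interval -0.0104 to 0.13).

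The study also sets wild-type against mutant BCL7A directly. In OCI-LY1, 0 of 10 members passed, where 3.05% of all genes did, and no member had an unadjusted p below 0.05 in edgeR or a call in DESeq2 or limma-voom. In VAL, 0 of 10 passed, where 9.07% of all genes did. There 5 members had an unadjusted p below 0.05, and DESeq2 called 1, SMARCB1, while limma-voom called 0. The widest VAL differences were SMARCA4, lower with wild-type BCL7A at 347 and 389 CPM against 412 and 413 CPM (log2 fold change -0.17, 95% interval -0.28 to -0.0477, edgeR adjusted p = 0.0692), and SMARCE1, at 37.2 and 38.5 CPM against 42.7 and 42.1 CPM (-0.16, edgeR adjusted p = 0.119).

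The VAL result depended on the settings and on which wild-type library was kept. With both kept, SMARCA4 passed in 4 of 9 alternative settings, SMARCB1 in 3 and SMARCD2 in 1. The 2 VAL wild-type libraries, which differed most among replicates, also differed for the members: SMARCA4 read 347 and 389 CPM, SMARCC1 334 and 367 CPM, and SMARCC2 182 and 203 CPM. Without VAL wild-type replicate 2, the log2 fold changes against delta27-BCL7A were -0.24 for SMARCA4, -0.19 for SMARCC1, 0.20 for SMARCB1 and 0.19 for SMARCD2. Without replicate 1 instead, they were -0.0858, -0.0678, 0.0880 and 0.0897 in the same order. Each of these fits leaves 1 wild-type library in VAL, whose spread is taken from the other groups. These libraries also enter the scaling, filter and shared spread of the other comparisons. Without replicate 1, the OCI-LY1 changes with wild-type BCL7A against empty vector were 0.18 for SMARCA4, 0.20 for SMARCA2 and 0.18 for SMARCC1. SMARCB1 stood at 0.10 and SMARCD3 at -0.48. With all libraries the values were 0.15, 0.16, 0.15, 0.0723 and -0.51 in that order. The SE of SMARCA2 was 0.0402 without replicate 1 and 0.0473 with all libraries.

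Over both lines, 1 of 10 passed between the vectors, where 12.9% of all genes did. SMARCB1 had 374 and 362 CPM with wild-type BCL7A and 349.6 and 348 CPM with delta27-BCL7A in OCI-LY1. In VAL it had 314 and 293 CPM against 272 and 279 CPM. The log2 fold change was 0.11 (SE 0.0334, edgeR adjusted p = 0.0276), and the call was lost in 10 of 20 alternatives, where values ranged from 0.0828 to 0.14 and adjusted p from 0.000504 to 0.152. The alternatives that lost it left out either OCI-LY1 wild-type, either OCI-LY1 delta27 or either VAL delta27 library, or VAL wild-type replicate 1. The others that lost it dropped the filter on low counts or added the GC and length correction, with or without a replicate block. Across the genes tested, Spearman's rho between this log2 fold change and GC content was 0.288, and -0.031 after the correction. With the correction and no block, SMARCB1 stood at 0.0890 (edgeR adjusted p = 0.109). SMARCA4 then passed as lower with wild-type BCL7A (-0.13, edgeR adjusted p = 0.00668) and SMARCA2 as higher (0.0905, edgeR adjusted p = 0.04235).

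Whether a vector acted alike in the 2 lines was tested as the difference of its effects, VAL minus OCI-LY1. None of the 10 members passed for wild-type BCL7A against empty vector, delta27-BCL7A against empty vector or wild-type against delta27-BCL7A in edgeR, DESeq2 or limma-voom. Over all genes, 3.89%, 1.51% and 0.451% did. At an unadjusted p below 0.05 there was 1 member in the first comparison and 0 in the others. That member, SMARCD3, differed by 0.61 (95% interval 0.18 to 1.05, edgeR adjusted p = 0.11). For SMARCA4 with delta27-BCL7A the difference was 0.0366, with a 95% interval of -0.13 to 0.20, which leaves room for differences as large as the effect itself.

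The other subunits of the complex were counted beside the core, as 20 genes without BCL7A, of which 18 were tested (BCL11B and ACTL6B were not). With wild-type BCL7A, 3 were higher and 0 lower in OCI-LY1, where 11.4% of all genes passed, and 1 higher and 1 lower in VAL, where 1.62% did. With delta27-BCL7A, 3 were higher in OCI-LY1 and 2 in VAL, and 0 were lower, beside 19.6% and 5.13% of all genes passing in either direction. PBRM1, the bromodomain subunit of the PBAF form, was higher with wild-type BCL7A in OCI-LY1 (log2 fold change 0.27, SE 0.0607, edgeR adjusted p = 0.00247) and over both lines (0.17, edgeR adjusted p = 0.0122), with 0.0651 in VAL (edgeR adjusted p = 0.754). It was also higher with delta27-BCL7A in OCI-LY1 (log2 fold change 0.31, SE 0.0606, edgeR adjusted p = 0.000317) and in VAL (0.27, SE 0.0599, edgeR adjusted p = 0.00734). PHF10, another PBAF subunit, was higher with delta27-BCL7A in both lines, at 0.19 and 0.18. The transcripts of PBRM1 and PHF10 are poor in GC, at 40.4% and 37.3%. Low-GC transcripts were higher with delta27-BCL7A in these libraries, and the part of GC content in the 2 changes was not tested. BCL11A, a zinc-finger factor of B cells found in the complex, was higher with wild-type BCL7A in OCI-LY1 (1.18, SE 0.197, edgeR adjusted p = 7.99e-05). Its level there was low, at a mean of 1.34 CPM with empty vector and 3.04 CPM with wild-type BCL7A. In VAL the means of BCL11A were 121 and 130 CPM, and it did not pass. BICRAL, a subunit of the non-canonical form, was lower with wild-type BCL7A in VAL (-0.47, SE 0.0653, edgeR adjusted p = 2.25e-05). Between the lines with empty vector, 7 of the 18 were higher in VAL and 7 lower, near the background of 73.4%.

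Among 19 ATPases and partners of other remodellers, 18 were tested (SMARCA1 was not). Over both lines, 10 were higher and 0 lower with delta27-BCL7A against empty vector, with a median log2 fold change of 0.12. Over all genes tested, 11.8% were higher and the median was -0.0249. They included HELLS (0.22), BAZ1B (0.18) and CHD1 (0.17). With wild-type BCL7A over both lines, 0 were higher and 1 was lower, CHD2 (-0.27). Over all genes tested, 6.95% passed there in either direction, against 22.6% with delta27-BCL7A. These counts were taken from the same libraries in which low-GC transcripts were higher with delta27-BCL7A, and the part of GC content in them was not tested.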

How the data were processed

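Each library's deposited table holds unnormalized read counts for Ensembl genes. The submitters' processing notes name the builds GRCh38 and hg38 and the tools DESeq2, edgeR, HTSeq (0.11.2), R (3.6.1) and STAR (2.6.1b); the annotation release and strand setting are not given in the sources used here. Reads assigned to no gene, 23.3% to 29.4% per library, were left out. Gene positions, lengths and GC content come from GENCODE 29, which matched 58483 of 60603 identifiers.

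Counts were fitted with edgeR 4.0.16 in R 4.3.3 (TMM scaling, minimum count 10, robust quasi-likelihood, 12 libraries, 6 group means, 6 residual degrees of freedom), for 13 contrasts. Two-sided p-values were adjusted by Benjamini-Hochberg over the 17057 genes tested, with a threshold of 0.05. The code was tested on counts with known answers. CPM were computed from the counts with TMM scaling. Named genes were the 10 members, BCL7A, at most 4 genes per list and contrast with the smallest p, and the 3 nearest genes to the 3 most variable members. The members, lists and tests were chosen with earlier results of these data known. Alternatives were RLE scaling, DESeq2 1.42.0, limma-voom (limma 3.58.1), other filters on low counts, each line fitted alone, a replicate block, a per-library loess correction for GC content and length, and leaving out each library.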

Additional observations from a re-analysis of the deposited data

Results flagged for a closer look

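BCL7A, the gene carried by the vectors, rose less in VAL than in OCI-LY1, and the difference between the lines passed the test of the difference itself. The log2 effect of wild-type BCL7A against empty vector was 1.88 in OCI-LY1 and 0.69 in VAL, a difference of -1.19 (SE 0.0663, edgeR adjusted p = 4.04e-15). The effect of delta27-BCL7A was 1.89 and 0.76, a difference of -1.13 (SE 0.0662, edgeR adjusted p = 2.31e-14). With empty vector BCL7A was already higher in VAL than in OCI-LY1, by 0.88 on the log2 scale, and the 2 libraries of each group lay close together. None of the 10 core subunit genes passed a test for a difference of effect between the lines.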

How the results depend on the processing

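Of 17 calls among 130 pairs of member and contrast, 10 passed in every alternative run (the 7 line differences, and over both lines SMARCA2 with wild-type BCL7A and SMARCA4 and SMARCC1 with delta27-BCL7A) and 7 were lost in at least 1. Another 28 pairs passed in some alternative only. SMARCE1 turned sign under the GC and length correction without and with the replicate block, to -0.0192 and -0.0195 for delta27-BCL7A against empty vector over both lines, and to -0.2228 and -0.2231 between the lines. The cause was not tested.

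The share of all genes passing in each alternative was not set beside the counts that follow. Members called (wild-type against empty vector in OCI-LY1, 1) became 2 under RLE scaling, DESeq2, limma-voom and at least 1 CPM in all 12 libraries. They were also 2 under the GC and length correction with or without the block, where SMARCA2 was lost and SMARCA4 and SMARCC1 were gained. Members called were 4 with no filter on low counts and in a fit of the line alone. With delta27-BCL7A in OCI-LY1 the count of 2 became 3 under RLE scaling and DESeq2 (SMARCA2 added), 1 under the 1 CPM filter and 4 in the line alone. In VAL, wild-type against empty vector went from 0 to 1 under the GC and length correction with or without the block. Delta27-BCL7A against empty vector in VAL went from 1 to 2 with no filter and under the correction with or without the block, and to 0 in the line alone. Wild-type against delta27-BCL7A in VAL went from 0 to 1 under DESeq2, no filter, the block and the correction, and to 2 under the 1 CPM filter and the block with correction. Over both lines, wild-type against empty vector went from 1 to 4 under the correction with or without the block. Delta27-BCL7A against empty vector went from 4 to 3 under the same (SMARCA2 and SMARCE1 lost, SMARCD1 gained). Wild-type against delta27-BCL7A went from 1 to 2 under the 1 CPM filter and the correction with or without the block. Under the correction SMARCB1 was lost there, and SMARCA4 and SMARCA2 were gained. Leaving out 1 library gave 0 to 5 (wild-type, OCI-LY1), 0 to 4 (delta27, OCI-LY1), 0 to 3 (delta27, VAL), 0 to 4 (wild-type against delta27, VAL), 1 to 3 and 0 to 4 (wild-type against empty vector and against delta27, both lines) and 0 to 2 (line difference for wild-type). Of these, 5, 4 (VAL) and 2 came without VAL wild-type replicate 2, and 5 also without replicate 1.

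No shared deviation of same-numbered libraries was seen, with correlations between -0.051 and 0.043. These values do not show how the libraries were handled. The replicate block alone ended none of the 17 calls, and with it SMARCA4 passed between wild-type and delta27-BCL7A in VAL.

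Dividing by the longest annotated transcript moved the levels per kb in OCI-LY1 to 158 (ACTL6A), 67.2 (SMARCB1), 61.9 (SMARCA4), 53.2 (SMARCD2), 50.6 (SMARCC1), 36.9 (SMARCC2), 29.5 (SMARCD1), 28.5 (SMARCA2), 4.17 (SMARCE1) and 2.16 (SMARCD3). In VAL they were 77.6 (ACTL6A), 61.3 (SMARCA4), 55.9 (SMARCB1), 54.2 (SMARCC1), 46.4 (SMARCD1), 45.4 (SMARCC2), 41.0 (SMARCD2), 17.1 (SMARCA2), 4.50 (SMARCE1) and 4.48 (SMARCD3), so the order of genes depends on the length used. Family shares became 60.9% and 54.9% for SMARCC1, 62.1% and 43.8% for SMARCD2 and 2.15% and 4.88% for SMARCD3 in OCI-LY1 and VAL.

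With 2 libraries per group, the smallest change of a member that passed between vectors within a line was 0.16 on the log2 scale, and SMARCD3, at 73 to 278 reads, had the widest intervals.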

Other observations

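Coding genes within 2 Mb of each member were compared between the lines with empty vector, a description chosen after the line differences had been seen. Over all genes tested, 36.9% were higher in VAL and 36.5% lower. Around ACTL6A on chromosome 3, 14 such genes had a median log2 fold change of -0.936 (VAL over OCI-LY1), with 10 passing as lower and 1 as higher, and ACTL6A itself stood at -1.03. Around SMARCC2 on chromosome 12, 90 genes had a median of 0.432, with 59 higher and 12 lower, and SMARCC2 stood at 0.30. The 53 genes around SMARCD1, also on chromosome 12, had a median of 0.397, with 37 higher and 9 lower, beside 0.65 for SMARCD1. The 9 genes around SMARCA2 had a median of -0.287, with 1 higher and 4 lower, beside -0.74 for SMARCA2, and the 32 around SMARCB1 a median of -0.074, with 9 higher and 14 lower, beside -0.27. Other members lay on the other side of 0 from their neighbours. Around SMARCD3 on chromosome 7 the median of 35 genes was -0.36, with 11 higher and 19 lower, while SMARCD3 stood at 1.05. Around SMARCD2 the median of 34 genes was 0.053, with 15 higher and 13 lower, while SMARCD2 stood at -0.38. Around SMARCC1 the median of 58 genes was -0.304, with 10 higher and 34 lower, while SMARCC1 stood at 0.10 without passing. SMARCA4 and SMARCE1, which did not pass, had neighbour medians of -0.181 (106 genes) and -0.055 (67 genes). The copy number of these regions was not tested.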
